A study of Mus musculus with 16 samples.

Results

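Medium spiny neurons are the projection neurons of the striatum, and 8 genes used as markers of these cells were followed here among the 24062 genes of the count table: Ppp1r1b, Adora2a, Rgs9, Tac1, Gng7, Pde10a, Pde1b and Rasd2. They were chosen by name and not by their values, although earlier results of these data were known when they were chosen. All 8 were in the count table and in the FPKM table (FPKM counts fragments by transcript length and library size), and all 8 passed the filter on low counts in every comparison. RNA-seq was performed on whole brains, cerebellum included, from 16 female C57BL/6J mice at postnatal day (PND) 45, with 4 mice in each of 4 groups. WW mice (Water-Water) drank water only. NW mice (Nicotine-Water) had nicotine at 200 µg/ml in tap water for 22 h per day over 10 days and water in the afternoon sessions. Water-Ethanol mice drank tap water and had 20% v/v ethanol in 4 afternoon sessions from PND 42, of which the first 3 lasted 2 h and the last 4 h. NE mice (Nicotine-Ethanol) had both. Nicotine was removed for the sessions, so that it was absent in the last 4 h before brains were taken, while ethanol was present. The paper names withdrawal as a possible source of effects in the nicotine group, which was not tested here. Mice set their own intake but had no choice of fluid. All bottles of NW and NE mice held nicotine for the 22 h, and each session offered a single bottle of water or ethanol. All mice were housed singly, and brains were taken when the last session ended. Each library held the whole brain, so that striatal RNA was mixed with that of all other regions and these genes were not measured in isolated striatum. Several members, Gng7, Pde1b and Pde10a among them, are also transcribed in the cortex and hippocampus.

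Medium spiny neurons receive dopamine through D1 or D2 receptors, and their answer runs largely through cyclic AMP and protein kinase A. Cells of the direct pathway carry D1 receptors and substance P, and cells of the indirect pathway carry D2 receptors and the adenosine receptor made from Adora2a, with enkephalin. DARPP-32, the product of Ppp1r1b, is an inhibitor of protein phosphatase-1 once protein kinase A has phosphorylated it. Nicotine and ethanol both raise dopamine release in the ventral striatum, and the question of these comparisons was whether the genes of this circuit differed in level after drinking either substance or both.

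The set of annotated RefSeq starts used here held 6 of the 8 members and had no entry for Ppp1r1b and Adora2a. It gave 10 starts in all on GRCm38.p6 for these 6, and the 250 bases before each start were read from the reference. Of the 4 windows printed, those of Gng7 and Pde1b belong to the pair of members whose levels followed each other most closely between brains. Tac1 is the member whose window held most core sites of the cyclic AMP response element. Rgs9 is the member for which no pair with another member passed the test of co-variation given below. Each is written 5′ to 3′ on the strand of the gene and ends at the base before the start. Capitals mark 3 motifs searched on both strands, overlapping matches included: the core site of the cyclic AMP response element (TGACG or CGTCA), the TATA motif (TATAAA or TTTATA) and the GC box (GGGCGG or CCGCCC).
Gng7, chr10:81014926-81015175, minus strand: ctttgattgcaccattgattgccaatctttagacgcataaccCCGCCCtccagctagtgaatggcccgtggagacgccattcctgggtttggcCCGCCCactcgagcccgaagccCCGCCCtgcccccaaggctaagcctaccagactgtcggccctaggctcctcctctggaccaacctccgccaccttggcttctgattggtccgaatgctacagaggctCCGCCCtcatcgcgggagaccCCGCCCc
Pde1b, first of 3 starts, chr15:103502784-103503033, plus strand: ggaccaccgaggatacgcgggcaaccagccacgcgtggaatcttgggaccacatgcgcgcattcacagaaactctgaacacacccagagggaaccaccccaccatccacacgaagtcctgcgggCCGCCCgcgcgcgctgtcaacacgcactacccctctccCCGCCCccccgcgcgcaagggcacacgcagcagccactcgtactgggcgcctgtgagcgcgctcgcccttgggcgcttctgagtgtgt
Tac1, chr6:7554811-7555060, plus strand: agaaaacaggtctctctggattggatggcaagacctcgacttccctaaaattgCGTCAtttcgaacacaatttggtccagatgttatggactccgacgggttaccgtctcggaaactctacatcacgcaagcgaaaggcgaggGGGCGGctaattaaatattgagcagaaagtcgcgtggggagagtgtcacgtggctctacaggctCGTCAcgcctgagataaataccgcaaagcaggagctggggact
Rgs9, chr11:109298182-109298431, minus strand: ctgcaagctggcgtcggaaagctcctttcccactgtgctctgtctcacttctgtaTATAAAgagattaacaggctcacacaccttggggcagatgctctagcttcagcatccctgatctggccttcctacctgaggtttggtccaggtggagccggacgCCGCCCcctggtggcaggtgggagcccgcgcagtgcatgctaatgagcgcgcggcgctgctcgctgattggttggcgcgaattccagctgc
The Gng7 window, that of the first of its 2 starts, held 5 GC boxes and the Pde1b window 2, with neither of the other motifs. The window of the second Gng7 start, which is not printed, held 1 core site and no TATA motif or GC box. Later Pde1b windows held none of the 3 motifs. Tac1 held 2 core sites and 1 GC box, and Rgs9 1 TATA motif and 1 GC box. Over the 32851 windows of the same length in the reference, 17.8% held a core site, 12.4% a TATA motif and 32.7% a GC box. A match of letters is a description and no evidence of binding.

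The members stood high among the genes of the brain, from the 74.7th (Adora2a) to the 97.7th percentile (Ppp1r1b) of mean FPKM over all genes in the table. Ppp1r1b (chromosome 11, 98348738 to 98357795 on GRCm38, 7 exons), the DARPP-32 gene, was the most abundant per transcript length at 120.7 ± 7.48 FPKM (SD, n = 16). Pde1b, a calcium- and calmodulin-dependent phosphodiesterase, followed at 71.8 ± 4.60 FPKM, and Gng7, the gamma subunit of the olfactory-type G protein that couples dopamine and adenosine receptors to adenylyl cyclase, at 61.8 ± 4.83 FPKM. Below these lay Rasd2, a small GTPase also called Rhes, at 46.1 ± 2.61 FPKM and Pde10a, a phosphodiesterase of cyclic AMP and cyclic GMP, at 38.5 ± 1.91 FPKM. Tac1, the precursor of substance P, had 35.8 ± 2.96 FPKM. Rgs9, an accelerator of GTP hydrolysis by G proteins, had 21.5 ± 2.32 FPKM, and Adora2a, an adenosine receptor that raises cyclic AMP, 13.2 ± 1.11 FPKM. The highest mean was 9.12 times the lowest. The ranges over mice of Pde1b and Gng7 overlapped, although Pde1b was above Gng7 in 16 of 16 mice. Those of Pde10a and Tac1 also overlapped, and Pde10a was the higher in 13 of 16 mice. The other neighbours in this order did not overlap in any pair of mice.

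**Figure D1:**
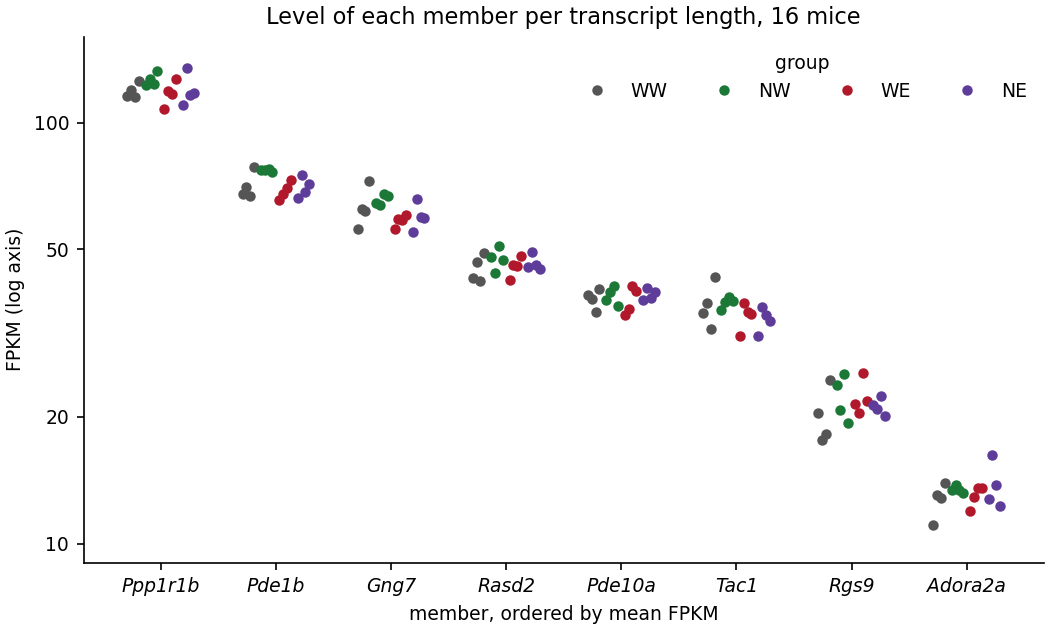
FPKM of each member in each of the 16 mice on a log axis, ordered by mean FPKM, 4 points per group coloured by group (Water-Ethanol is shown by its initials). The order runs from Ppp1r1b at 107.9 to 135.0 FPKM down to Adora2a at 11.1 to 16.3 FPKM.

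The position of Rgs9 in this order depended on the table used. When reads in the count table were divided by exon length and library size, Rgs9 had a scaled level of 8.60, 40.0% of its FPKM, and fell below Adora2a at 12.6, while the other 7 members lay at 83.6% of their FPKM or more and kept their order. The ratio of scaled counts to FPKM varied between mice by 6.39% for Rgs9 (coefficient of variation, n = 16) and by 0.84% to 1.99% for the others. In the count table the exons of Rgs9 (chromosome 11, 109225355 to 109298181, 19 exons) sum to 8530 bases, of which 1 exon makes up 6162, and no exon of another gene in the table overlaps them. Only Ppp1r1b among the members shared exonic bases with another gene, 164 bases with 1700003D09Rik on the opposite strand. The comparisons that follow use CPM (counts scaled to library size with TMM factors), and each value is a level in 1 mouse.

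Markers of the cerebellum set a pair of mice apart before any comparison. WW 4 and NW 3 (replicate numbers name mice within a group) had cerebellum marker scores, the mean of centred log2 CPM over 14 genes, of -1.28 and -0.86, while the other 14 mice lay between 0.042 and 0.257. In both mice 13 of the 14 cerebellar genes were below all other mice, with a summed level of 815.7 CPM in WW 4 and 1011 CPM in NW 3 against 1813 to 2122 CPM elsewhere, and no cerebellar gene was at 0. All 8 members were at their group's highest in WW 4, by a median of 0.19 on the log2 scale above the mean of the other 3 WW mice (range 0.084 to 0.447), where the median of all genes differed by 0.0019. In NW 3, 6 of 8 members were the highest of their group (median 0.080, range -0.021 to 0.423; all genes 0.0086). Other mice stood apart by other markers. The score over 8 olfactory bulb genes was -0.585 in Water-Ethanol 3, -0.479 in NE 3 and -0.364 in NW 4. In the remaining mice it was -0.118 to 0.278. The choroid plexus score was lowest in NW 3, at -0.442. In bulk tissue fewer cells of a type and less RNA per cell cannot be told apart. Drd1a (the D1 receptor, under this symbol in the tables), Drd2, Penk and Pdyn, receptors and peptide precursors of medium spiny neurons, were all detected, with group means of 11.9 to 12.8, 11.95 to 13.2, 137.7 to 153.5 and 11.2 to 12.54 FPKM. Levels in whole brain do not show in which region a transcript was made.

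**Figure D2:**
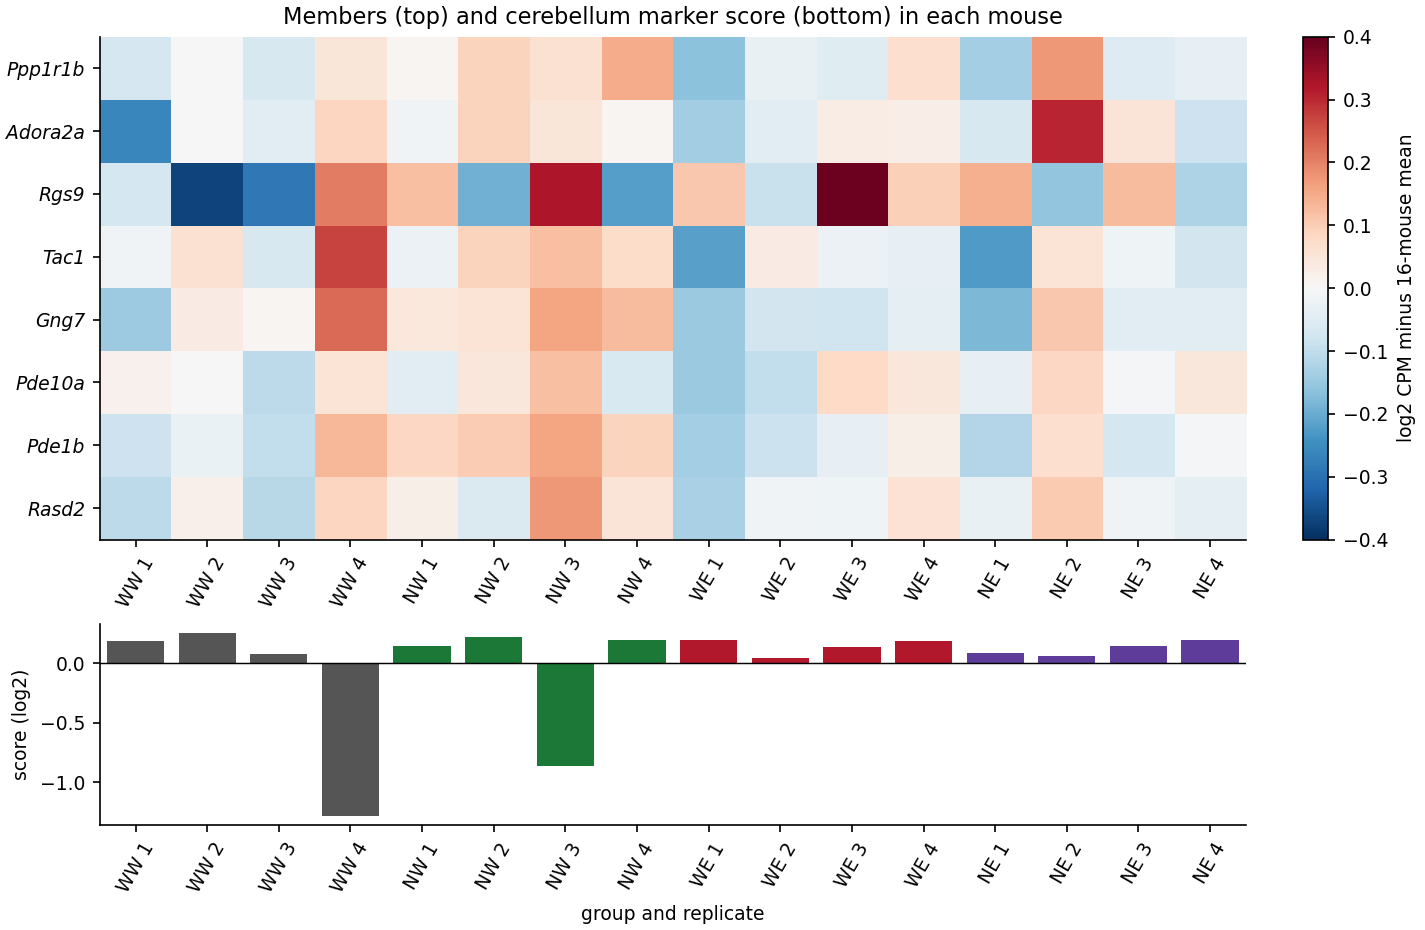
Top, log2 CPM of each member in each mouse minus its 16-mouse mean, in colour from -0.4 to 0.4; bottom, cerebellum marker score of the same mice as bars in log2 units, coloured by group. WW 4 and NW 3, with scores of -1.28 and -0.86, are above the mean for 8 of 8 members, as NE 2 is for 7 of 8 with a score of 0.066.

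Across comparisons, 0 of the 8 members passed the threshold in any of the 6 comparisons by edgeR, DESeq2 or limma with all mice and no covariate. In NW against WW, 0% of all tested genes were called, and 1 member (Pde1b) had an unadjusted p under 0.05 by edgeR, against 8.44% of all genes. The members' median log2 fold change was 0.080, beside 0.0096 over all genes, and 7 of 8 were positive. In Water-Ethanol against WW 0.457% of all genes were called, no member had an unadjusted p under 0.05 (19.3% of all genes did), and the median was -0.019 beside 0.0015. NE against WW called 0.313% of all genes and had no member under an unadjusted 0.05 (17.5% of all genes), with a median of 0.024 beside 0.0039. The ethanol effect called 4.5% of all genes, and 3 of 8 members (Gng7, Tac1 and Pde1b) were under an unadjusted 0.05, against 22.9% of all genes. There the median was -0.037 beside 0.0021 and 6 of 8 members were negative. Neither the nicotine effect nor the interaction called any gene (0% each), and 0 members were under an unadjusted 0.05 (10.3% and 6.76% of all genes). DESeq2 called 122 genes in NW, 109 in the nicotine effect and 1 in the interaction, no member among them. In the nicotine effect the largest value was that of Adora2a, 0.086 (SE 0.056, adjusted p = 0.632, edgeR), and Pde1b had 0.075 (SE 0.037, adjusted p = 0.505, edgeR). These comparisons share the WW mice, so that 1 high control such as WW 4 entered each of them.

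Rgs9, whose product acts with Gnb5 on G proteins below D2 receptors, had the largest difference of the 8 in Water-Ethanol and in NW against WW, and the largest spread. WW mice had 69.1, 56.1, 59.5 and 83.7 CPM and Water-Ethanol mice 78.2, 68.1, 95.3 and 77.4 CPM. In NW mice the levels were 78.8, 63.4, 90.8 and 62.2 CPM, and in NE mice 80.1, 65.0, 79.2 and 66.5 CPM. The highest WW mouse, WW 4, was above 3 of the 4 Water-Ethanol mice, and all groups overlapped. In Water-Ethanol against WW, Rgs9 had a log2 fold change of 0.25 (SE 0.12) and an adjusted p = 0.267 by edgeR's quasi-likelihood test, with a 95% interval of 0.997- to 1.43-fold. Omission of single mice gave values from 0.16 to 0.38 for this log2 fold change (edgeR). The highest was that without WW 4, with an adjusted p of 0.0372 (edgeR). With all mice kept and the cerebellum score as a covariate, the log2 fold change was 0.36 with an adjusted p of 0.0444 (edgeR). The fits without WW 4 and with the covariate called 5.17% and 5.18% of all genes, against 0.457% with all mice and no covariate. On FPKM the difference was 0.14 on the log2(FPKM + 1) scale (limma, adjusted p = 0.475), and no other alternative called it. NW and NE differed from WW by 0.14 (SE 0.14) and 0.12 (SE 0.11) on the log2 scale, also below the threshold, with adjusted p of 0.804 and 0.628 (edgeR). The NW difference was 0.27 without WW 4 and 0.018 without NW 3. The NE difference was 0.24 without WW 4, and its lowest value on omission of a single mouse was 0.044. The ethanol effect on Rgs9 was 0.11 (SE 0.093, adjusted p = 0.481, edgeR) and, without WW 4 and NW 3, 0.23 (adjusted p = 0.0738, edgeR). The interaction of nicotine and ethanol for Rgs9 was -0.27 (SE 0.19, adjusted p = 0.840, edgeR), with an interval from -0.66 to 0.12. Within groups the SD of Rgs9 was 0.224 in log2 units, larger than in 98.4% of 2245 genes of similar level, whose median was 0.070. The remaining members had within-group SDs of 0.077 to 0.125, larger than in 62.2% to 87.4% of genes of their own level. These SDs are of log2 CPM. In FPKM the SD of Rgs9 ran from 0.958 around a mean of 21.2 in NE to 3.14 around 20.2 in WW. In CPM these groups had SDs of 8.05 around 72.7 and 12.3 around 67.1. The rank of this spread among genes was not examined on FPKM.

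Gng7 (chromosome 10, 80948624 to 81014925, 5 exons) had the lowest adjusted p of the 8 members in the ethanol effect, which did not pass the threshold. WW mice had 176, 199, 196 and 228 CPM and NW mice 200.5, 202, 217.5 and 212. Water-Ethanol mice had 176, 185, 184 and 189.8 CPM and NE mice 172, 210.1, 189 and 189. All 4 Water-Ethanol mice were below all 4 NW mice, whereas WW 1 was as low as the lowest Water-Ethanol mouse. The ethanol effect, the mean of both ethanol groups against the mean of both water-session groups, was -0.13 (SE 0.046) on the log2 scale, 0.916-fold with an interval of 0.856 to 0.979. Its p was 0.0125 before and 0.111 after adjustment (edgeR), and the exact two-sided permutation p over mice was 0.0216. The exact permutation test was run for all 8 members in several comparisons, and its p-values here and below are not adjusted for that number. Without WW 1 the effect was -0.16 with an adjusted p of 0.0440 (edgeR), in a fit that called 4.42% of all genes. Without WW 4 and NW 3 together it was -0.083 with an adjusted p of 0.197 (edgeR).

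Pde1b (chromosome 15, 103503034 to 103530056, 17 exons) had its highest levels in NW. Its 4 NW mice had 233, 236, 245 and 234 CPM, with an SD of 5.58 CPM around a mean of 237. WW mice had 207.5, 216, 205 and 241, Water-Ethanol mice 200.1, 207, 215 and 224, and NE mice 203, 230.1, 209 and 218.5 CPM. Every NW mouse was above every Water-Ethanol mouse and every NE mouse, and WW 4 alone among WW mice reached the NW range. In NW against WW the log2 fold change was 0.13 (SE 0.054), 1.09-fold with an interval of 1.005 to 1.18, with an adjusted p of 0.571 by edgeR. The exact two-sided permutation p was 0.114 for these 4 and 4 mice, where the smallest possible is 0.0286. The ethanol effect on Pde1b was -0.090 (SE 0.037), with p = 0.0234 before and 0.151 after adjustment (edgeR), and its exact permutation p was 0.0408. Without WW 4 and NW 3 that effect was -0.057 (adjusted p = 0.270, edgeR) and the NW difference 0.17 (adjusted p = 0.318, edgeR).

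Tac1 (chromosome 6, 7555071 to 7562973, 7 exons) had its lowest group means in both ethanol groups, 32.6 ± 2.36 CPM in Water-Ethanol and 32.5 ± 2.64 CPM in NE, against 35.5 ± 3.77 CPM in WW and 35.5 ± 1.503 CPM in NW (SD, n = 4). WW mice had 33.5, 35.3, 32.4 and 40.9 CPM and NW mice 33.3, 36.0, 36.8 and 35.6. In Water-Ethanol mice the levels were 29.2, 34.6, 33.3 and 33.1 CPM and in NE mice 29.0, 35.2, 33.5 and 32.2. Water-Ethanol 1 and NE 1 were the lowest of all 16 mice, and the other ethanol mice lay within the range of WW and NW or just under it. The ethanol effect was -0.13 (SE 0.052), 0.916-fold with an interval of 0.849 to 0.987, with p = 0.0242 before and 0.153 after adjustment (edgeR) and an exact permutation p of 0.0318. Without WW 4 and NW 3 it was -0.082 (adjusted p = 0.277, edgeR).

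**Figure D3:**
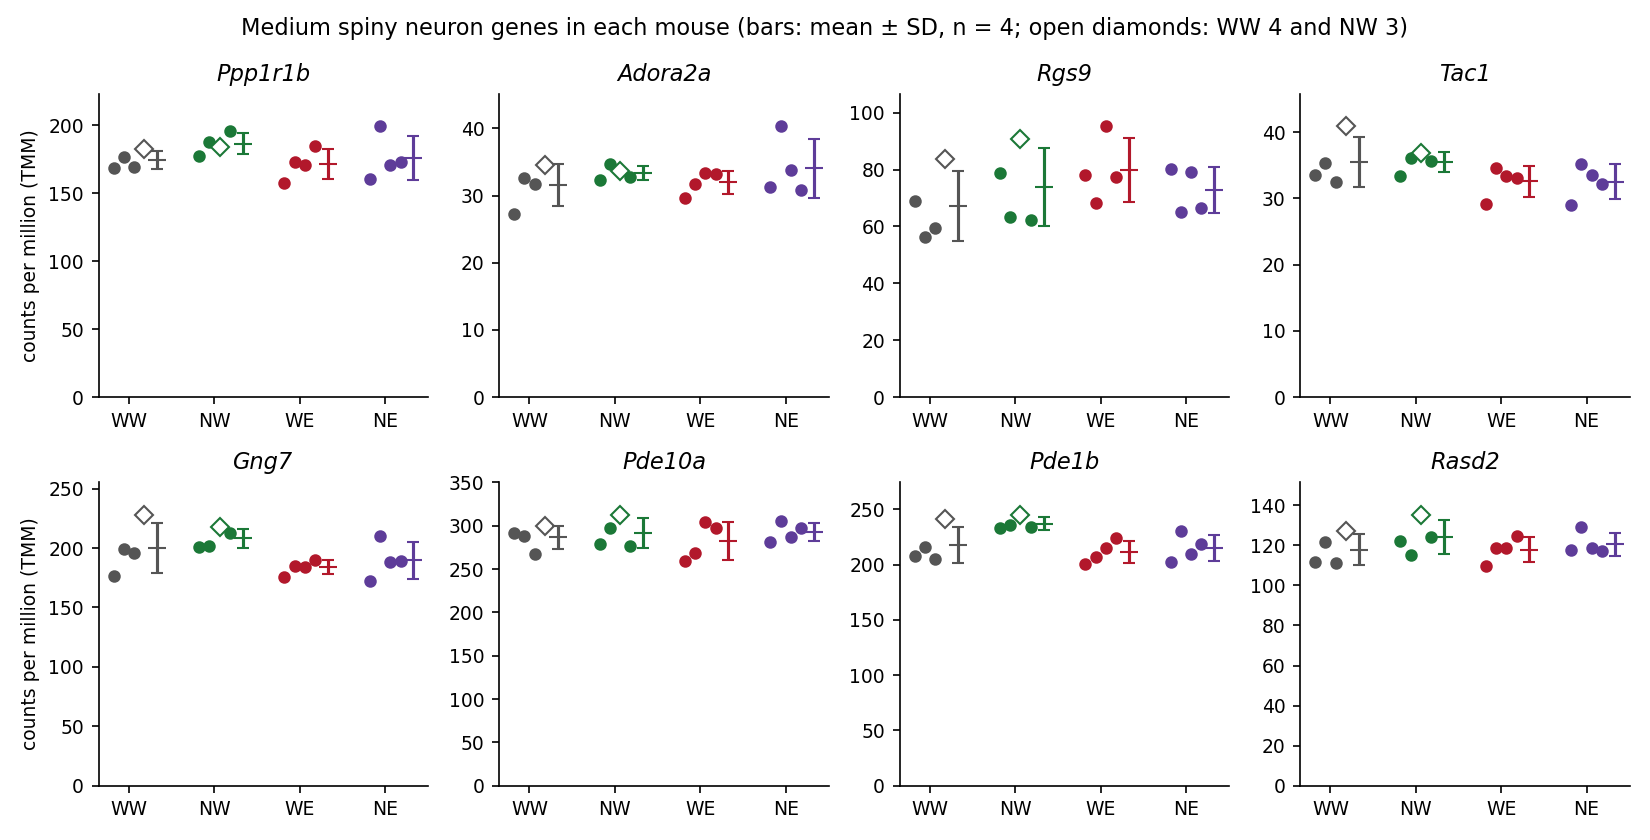
Level of each member in each mouse in CPM (TMM) from 0, by group, with the mean and SD of 4 mice as bars beside the points; open diamonds are WW 4 and NW 3, the mice with the lowest cerebellum marker scores, and Water-Ethanol is shown by its initials. Groups overlap with WW for all 8 members, and the 4 NW points of Pde1b, 233 to 245 CPM, lie above all points of both ethanol groups.

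The other 4 members overlapped between all groups. Ppp1r1b had 174.3 ± 6.70 CPM in WW and 171.6 ± 11.2 CPM in Water-Ethanol (SD, n = 4). With nicotine the levels were 186.4 ± 7.55 CPM in NW and 175.9 ± 16.5 CPM in NE. In 3 of the 4 NW mice it was above all WW mice, and NW differed from WW by 0.098 (SE 0.045) on the log2 scale with an adjusted p of 0.596 (edgeR) and an exact permutation p of 0.0571. Adora2a (chromosome 10, 75316877 to 75334792, 3 exons) ran from 31.5 ± 3.13 CPM in WW to 34.0 ± 4.41 in NE, where NE 2 had 40.4 CPM and the other NE mice 30.8 to 33.8. Rasd2 (chromosome 8, 75213944 to 75224113, 3 exons) had means of 117.9 CPM in both WW and Water-Ethanol, 124.2 in NW and 120.6 in NE, with SDs of 5.69 to 8.41. Pde10a (chromosome 17, 8526801 to 8986648, 24 exons) had the largest exact permutation p in the ethanol effect of the 8, 0.849, with group means between 282.6 and 292.8 CPM and SDs of 10.4 to 21.8.

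The spread between mice set how large a difference the data still allowed. For the 7 members other than Rgs9, the 95% intervals reached from 0.820- to 1.13-fold in Water-Ethanol, 0.895- to 1.18-fold in NW and 0.814- to 1.24-fold in NE against WW. For the ethanol effect they reached from 0.849- to 1.10-fold and for the nicotine effect from 0.925- to 1.15-fold. Rgs9 widened these bounds to 1.43-fold in Water-Ethanol, 1.36-fold in NW and 1.29-fold in NE.

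**Figure D4:**
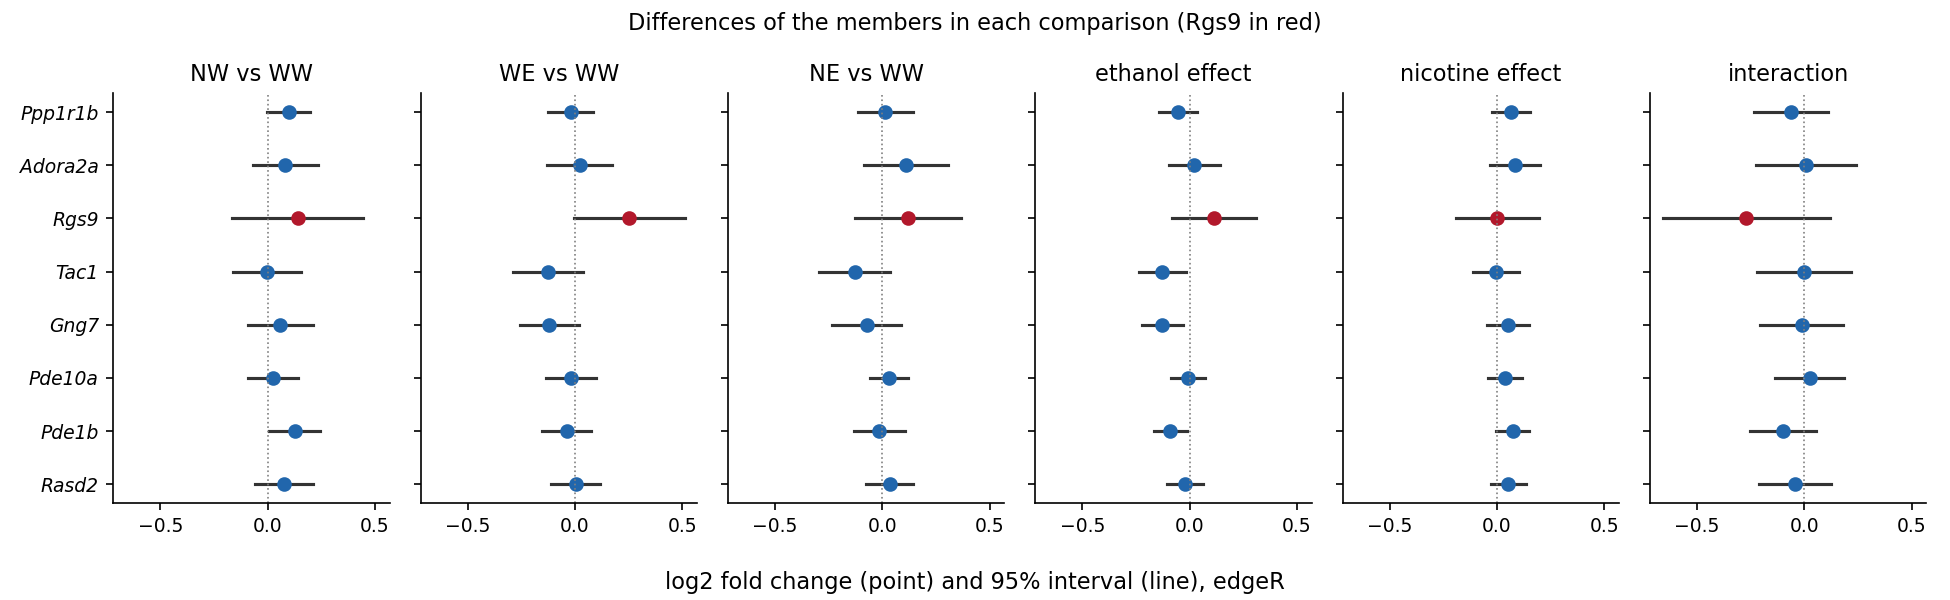
Log2 fold change of each member (points) with its 95% interval (lines) in the 6 comparisons, from edgeR, with Rgs9 in red. Of the 8 intervals, 8 include 0 in Water-Ethanol and in NE against WW, 7 in NW against WW and 5 in the ethanol effect.

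Groups were also set side by side without a fit. No member had a treated group wholly above or below WW, where 1.71% of all genes were wholly higher and 4.19% wholly lower in NW, 5.09% and 5.6% in Water-Ethanol, and 5.18% and 5.45% in NE. Gng7 and Pde1b were lower in all Water-Ethanol than in all NW mice, 2 of 8 members where 4.76% of all genes were, and Pde1b was lower in all NE than in all NW mice, 1 of 8 where 3.01% of all genes were. Markers of cortex and hippocampus were lower in all Water-Ethanol than in all WW mice. The score over 10 such genes was -0.117 to -0.056 in Water-Ethanol, -0.056 to 0.065 in NE, -0.0071 to 0.101 in WW and -0.104 to 0.148 in NW. Their summed level was 1343 to 1429 CPM in Water-Ethanol, 1463 to 1595 CPM in WW and 1445 to 1641 CPM in NW. The summed level of 7 striatal interneuron markers was 170.1 to 176.8 CPM in Water-Ethanol, 179.3 to 195.1 CPM in WW and 188.3 to 195.3 CPM in NW, although their scores overlapped. For 5 microglia markers the score was -0.154 to -0.025 in Water-Ethanol and 0.020 to 0.110 in NW, although their summed levels overlapped. The score over 7 thalamus markers was -0.070 to -0.0098 in NE and 0.0021 to 0.111 in WW, although their summed levels overlapped. All other marker lists overlapped in both measures, for each treated group against WW and for both ethanol groups against NW. The part of these markers in the lower Gng7, Pde1b and Tac1 levels was not tested.

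From a list of 40 further genes of striatal neurons, all 40 were tested. Their median log2 fold change was -0.021 in NW (17 positive, 23 negative), -0.041 in Water-Ethanol (14 and 26) and -0.019 in NE against WW (15 and 25). In the ethanol effect it was -0.012 (16 and 24), in the nicotine effect 0.0050 (21 and 19) and in the interaction 0.021 (24 and 16). The list's median thus had the sign of the members' median in Water-Ethanol, the ethanol effect and the nicotine effect, and the opposite sign in NW, NE and the interaction. Rgs4, an inhibitor of G protein signalling that is transcribed widely in the forebrain, was lower in Water-Ethanol than in WW, 372.9 ± 30.9 against 470.8 ± 19.7 CPM (SD, n = 4), by -0.33 (SE 0.056) on the log2 scale with an adjusted p of 0.0424 (edgeR), 1 of 40 called where 0.457% of all genes were. No Water-Ethanol mouse, at 330.8 to 400.0 CPM, reached the lowest WW mouse at 442.5 CPM. The call did not hold with limma (adjusted p = 0.0861 on log2(FPKM + 1)), in the fit of all 16 mice (0.0777, edgeR), or without any of WW 2, WW 3 and Water-Ethanol 1, 2, 3 or 4 (up to 0.145, edgeR). In the ethanol effect edgeR called 1 of the 40, where 4.5% of all genes were called. That gene was again Rgs4, which fell by 0.25 on the log2 scale (SE 0.054, adjusted p = 0.0172, edgeR) and was called under every alternative run, with adjusted p up to 0.0447. None of the 40 was called in the other 4 comparisons by edgeR or limma, with 1 to 6 under an unadjusted 0.05 (6.76% to 17.5% of all genes were), and DESeq2 called Rgs4 in NE. DESeq2 also called Gad2 beside Rgs4 in Water-Ethanol and Penk beside Rgs4 in the ethanol effect. Over all genes DESeq2 called 590 in Water-Ethanol against WW, 517 in NE against WW and 1093 in the ethanol effect.

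Receptors and peptides that define the pathways did not pass the threshold. In the ethanol effect the log2 fold changes were -0.071 (SE 0.053) for Drd1a, -0.080 (SE 0.060) for Drd2 and -0.097 (SE 0.065) for Pdyn, the prodynorphin gene. Without WW 4 they were -0.027, -0.051 and -0.054, and without both WW 4 and NW 3 they were -0.0052, -0.066 and -0.040. Penk, the enkephalin precursor of indirect-pathway cells, had -0.11 (SE 0.034) with an adjusted p of 0.0690 by edgeR and 0.0303 by DESeq2. Its adjusted p was 0.0435 without WW 1 and 0.0227 without NE 2, but 0.131 without NE 1 (edgeR). Without WW 4 and NW 3 together Penk had -0.099 with an adjusted p of 0.101 (edgeR). Penk means were 175.3 ± 5.92 CPM in Water-Ethanol and 176.1 ± 13.4 in NE, against 183.5 ± 8.04 in WW and 196.2 ± 4.42 in NW.

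Of 37 genes of cyclic AMP and DARPP-32 signalling, all 37 tested, edgeR called 1 lower and 1 higher in the ethanol effect, where 4.5% of all genes were called. The median was -0.036, with 27 of the 37 negative. Ppp1r1a, a phosphatase-1 inhibitor related to DARPP-32, fell by 0.19 on the log2 scale (SE 0.045, adjusted p = 0.0238, edgeR), and was 37.1 ± 1.45 CPM in Water-Ethanol and 37.8 ± 1.95 in NE against 41.8 ± 4.25 in WW and 43.5 ± 2.45 in NW. Ppp1cc, a catalytic subunit of that phosphatase, rose by 0.12 (SE 0.031, adjusted p = 0.0357, edgeR) from 252.4 and 242.6 CPM in WW and NW to 275.1 and 262.7 CPM in Water-Ethanol and NE. Both calls were lost with 1 of several mice left out, Ppp1r1a without Water-Ethanol 3 or 4 or NE 1 or 3 (adjusted p up to 0.0597, edgeR) and Ppp1cc without WW 2 or 4, Water-Ethanol 1 or 3, NW 2 or NE 1 or 3 (up to 0.0751, edgeR). DESeq2 and limma also called both, and beside them Csnk1e, a casein kinase, which was 0.10 higher (SE 0.033, adjusted p = 0.0729, edgeR). DESeq2 alone called Gnao1, a G protein alpha subunit, which was -0.054 (SE 0.023, adjusted p = 0.160, edgeR). Ppp1r1a lies on the minus strand 222 bases beyond the end of Pde1b, which is on the plus strand, so that reads past either gene's end could reach the other. The list had 18 genes under an unadjusted 0.05 in Water-Ethanol against WW (19.3% of all genes were) but 0 calls by edgeR, 0 by limma and 4 by DESeq2 (Ppp3r1, Ppp3cb, Ppp1cc and Arpp19), and its median there was -0.063. In NE against WW it had 0 calls by edgeR and limma and 4 by DESeq2 (Ppp3cb, Csnk2a1, Ppp1cb and Arpp19), with 10 under an unadjusted 0.05 (17.5% of all genes were). In NW, the nicotine effect and the interaction edgeR and limma called 0 of the 37, with 3 to 4 under an unadjusted 0.05 (6.76% to 10.3% of all genes were), and DESeq2 called Ppp1cb in the nicotine effect alone. None of 13 substance P and adenosine genes, of which 10 or 11 were tested, passed in any comparison by edgeR, with 0 to 3 under an unadjusted 0.05 (6.76% to 22.9% of all genes were). In the ethanol effect DESeq2 called Adora1 and Adk of these, and limma Adora1. Over all genes DESeq2 called 590 in Water-Ethanol against WW and 517 in NE against WW. It called 1093 in the ethanol effect and 109 in the nicotine effect, and limma on log2(FPKM + 1) called 763 in the ethanol effect.

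Members varied together between brains of the same group. After removal of group means, Pearson's r over the 16 mice was positive for all 21 pairs of the 7 members other than Rgs9, from 0.437 to 0.871 with a median of 0.745. Of the 28 pairs of members examined, 18 had an adjusted p under 0.05 (Benjamini-Hochberg over 28 pairs, 100000 permutations within groups), and all 18 were among those 21. Gng7 and Pde1b were the closest, with r = 0.871 (permutation p = 0.00038, adjusted 0.00329) and Spearman's rho = 0.824 (p = 0.00056, adjusted 0.00392), and r was 0.828 without the 2 mice farthest from the median of Gng7. Tac1 and Pde1b had r = 0.841 (permutation p = 0.00163, adjusted 0.0057) and rho = 0.747 (p = 0.00735, adjusted 0.0171), and r = 0.725 without the 2 farthest mice. Adora2a of the indirect pathway and Tac1 of the direct pathway also followed each other, with r = 0.703 (permutation p = 0.027, adjusted 0.0434) and rho = 0.706 (p = 0.011, adjusted 0.0221), and r = 0.704 without the 2 farthest. Without WW 4 and NW 3 the number of pairs was 11 and the median r of the 21 pairs 0.722, and on log2(FPKM + 1) 14 pairs passed. Pairs of other genes were not examined in this way. Whether members varied together more than other genes do was therefore not tested.

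Rgs9 passed with 0 of the 7 other members. Its r ranged from -0.27 with Ppp1r1b to 0.426 with Pde10a, and without WW 4 and NW 3 from -0.58 with Gng7 to 0.153 with Pde10a. On log2(FPKM + 1), where Rgs9 reads differently from the count table, r was -0.021 with Ppp1r1b and 0.61 with Pde10a, also with 0 pairs passing. Whether the correlations of Rgs9 differ from those of the other members was not tested.

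**Figure D5:**
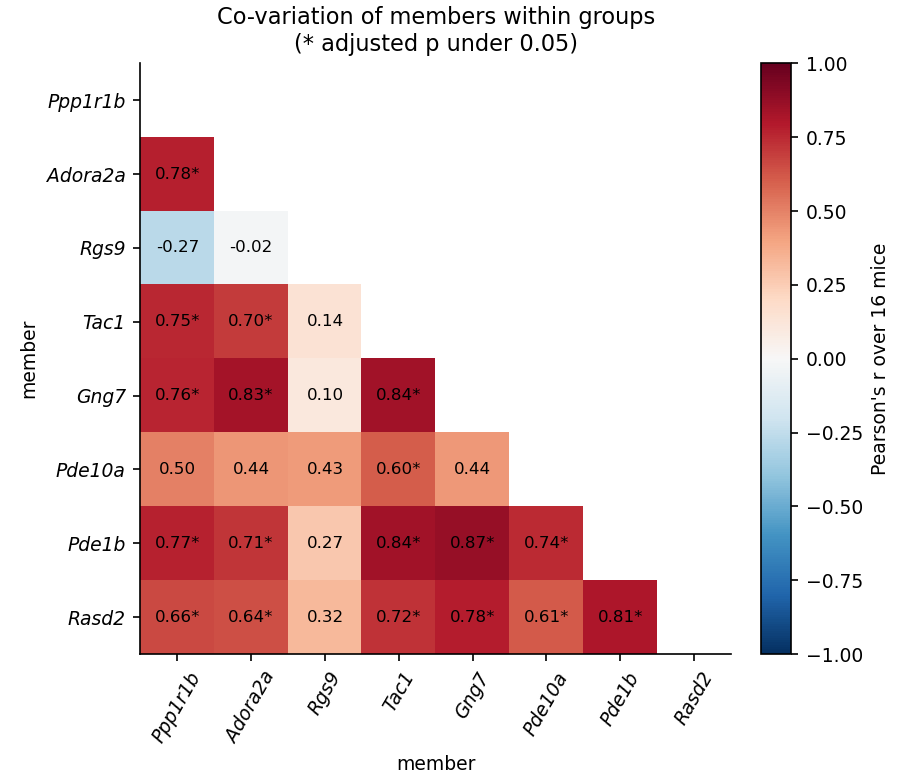
Pearson's r between members over 16 mice after removal of group means, each cell a pair, in colour and print, with an asterisk where the adjusted permutation p is under 0.05. The row and column of Rgs9 hold -0.27 to 0.43 and no asterisk, and the other 21 cells hold 0.44 to 0.87, 18 with an asterisk.

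The mouse with the most members at the top of its group after WW 4 was NE 2, highest in 7 of 8 and lowest in Rgs9. Water-Ethanol 1 was the lowest of its group for 7 of 8 members, all but Rgs9. Their cerebellum scores, 0.066 and 0.198, lay within those of the other mice.

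Genes outside the 8 were also ordered by how like their profile was to the mean of the members over all 16 mice. The first 10 included genes of dopamine and cyclic AMP signalling and genes not particular to the striatum. The highest r was that of Ptpn5 (0.905), the striatum-enriched phosphatase STEP. Adcy5, the adenylyl cyclase of medium spiny neurons, had r = 0.858, Drd1a 0.857 and Pde8b, a phosphodiesterase of cyclic AMP, 0.855. The others of the first 10 were Nsmf (0.876), Hpca (0.863), a calcium sensor of hippocampal and other forebrain neurons, Fbxl16 (0.861), Slc30a3 (0.857), the zinc transporter of glutamatergic vesicles, Camkv (0.855) and Phactr1 (0.847). Of the 40 striatal list genes 16 had r above 0.5, with a median of 0.389, where 5.11% of all 15592 genes did, with a median of -0.0043. These r are descriptions over libraries that share region make-up and carry no p. Group means were not removed for them, and WW 4 and NW 3 were kept in. These mice had the highest mean deviations of the members, 0.139 and 0.145 in log2 units. Whether the likeness is particular to striatal genes was not tested. Ebf1, a transcription factor of direct-pathway cells, had the lowest r of the list at -0.61.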

How the data were processed

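RNA-seq libraries came from whole brains of 16 mice, 4 in each of 4 groups taken from the sample labels. The authors trimmed reads with Trimmomatic 0.32, aligned them with TopHat2 to GRCm38 (mm10) and deposited whole read counts per gene, 1 column per mouse, without normalization. The program that counted, and its use of strand, are not given in the sources used here; the labels name an unstranded kit and the paper a stranded one. The authors also deposited FPKM from the Cufflinks tools. Reads were not aligned or counted again. Total counts per mouse ran from 27100352 to 32880979.

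Counts were analysed with edgeR 4.0.16 in R 4.3.3 (TMM factors, default filter on low counts, quasi-likelihood test, Benjamini-Hochberg adjustment over all genes tested, threshold 0.05). Each treated group was compared with WW in a fit of 8 mice, and the ethanol effect, nicotine effect and interaction came from a fit of 16. The study used Cuffdiff2, which needs reads. Levels between genes were compared as FPKM. Exact permutation tests and 100000 permutations within groups used numpy 2.4.6 and pandas 2.3.3 in Python 3.11.15. Alternatives were RLE factors, DESeq2 1.42.0, other filters, limma 3.58.1 on log2(FPKM + 1) or log2(FPKM + 0.1), a cerebellum marker score as covariate, a fit of all mice and leaving out each mouse. Leaving out WW 4 and NW 3 together, and FPKM for the co-variation, were chosen after seeing the data.

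The members and the gene lists were chosen with earlier results of these data known. Named are all 8 members, every list gene that passed the test, Drd1a, Drd2, Penk and Pdyn always, and the 10 genes most like the mean member profile; 1 further gene of this rule is not reported here. Scripts were tested on simulated data.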

Additional observations from a re-analysis of the deposited data

Results flagged for a closer look

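Of 36 sets of 4 mice examined for a mouse far from the rest (32 of single members and 4 of the cerebellum score), 3 stood out, and about 1 in 20 would do so by chance. Rasd2 was 129 CPM in NE 2, the highest of its group, while the other 3 NE mice lay between 117 and 119 CPM, a gap of 0.841 of the group's range. The cerebellum marker score was -1.28 in WW 4, where the other 3 WW mice had 0.0787 to 0.257. It was -0.864 in NW 3, where the other NW mice had 0.143 to 0.223.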

How the results depend on the processing

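No paired analysis was possible because the labels give the groups no replicate numbers in common. No member was called in NW against WW, NE against WW, the nicotine effect or the interaction under any alternative run. The exceptions were 1 member called in Water-Ethanol against WW, Rgs9, with the cerebellum score as covariate and without WW 4 (0 to 1 over mice left out), and 1 in the ethanol effect, Gng7, without WW 1 (0 to 1). The cause was not tested. The count of co-varying pairs was 11 without WW 4 and NW 3.

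Signs of differences near 0 changed in all 6 comparisons. In NW against WW, Tac1 was 0.0016 with no filter, 0.026 with limma on log2(FPKM + 1) with or without a filter, 0.027 with a pseudocount of 0.1, 0.018 with the cerebellum covariate and 0.057 without WW 4 and NW 3; over mice left out it was -0.045 to 0.073, and Pde10a -0.018 to 0.051. In Water-Ethanol against WW, Rasd2 was -0.0018 with no filter, and Ppp1r1b 0.00060 and Pde1b 0.0076 with the covariate. Over mice left out, Adora2a was -0.042 to 0.068, Rasd2 -0.026 to 0.042, Ppp1r1b -0.059 to 0.017, Pde10a -0.056 to 0.019 and Pde1b -0.067 to 0.015. In NE against WW, Pde1b was 0.029 with the covariate, and over mice left out -0.047 to 0.038 and Ppp1r1b -0.050 to 0.054. In the ethanol effect, Pde10a was 0.013 and Rasd2 0.012 with the covariate and 0.020 and 0.019 without WW 4 and NW 3; over mice left out Adora2a was -0.022 to 0.046, Pde10a -0.026 to 0.011 and Rasd2 -0.038 to 0.00059. The nicotine effect changed sign in 2 members, Tac1 (0.0049 with the covariate, 0.025 without WW 4 and NW 3, -0.027 to 0.033 over mice left out) and Rgs9 (-0.052 to 0.064). The interaction changed sign in 4. Adora2a was -0.0051 with limma on log2(FPKM + 1) with or without a filter, -0.0062 with a pseudocount of 0.1, -0.0068 with the covariate and -0.039 without WW 4 and NW 3; over mice left out it was -0.084 to 0.069, Tac1 -0.075 to 0.049, Gng7 -0.080 to 0.042 and Pde10a -0.014 to 0.061.

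Over all genes, calls ranged from 0 to 122 in NW, 0 to 797 in Water-Ethanol, 0 to 517 in NE, 280 to 1182 in the ethanol effect, 0 to 109 in the nicotine effect and 0 to 1 in the interaction, against 0, 70, 48, 702, 0 and 0. DESeq2 gave 122, 590, 517, 1093, 109 and 1, the fit of all mice 112, 28 and 51 for the first 3, limma on log2(FPKM + 1) 0, 0, 26, 763, 0 and 0, and the covariate 1, 794, 371, 1182, 0 and 1. What differences the spread between 4 mice a group still allowed is given by the members' 95% intervals.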
